A study of Mus musculus with 7 samples.

Results

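The insulin-like growth factor genes of the mouse aorta were followed through 7 single-cell libraries. The 9 genes, of 31253 in the count tables, were taken by name: the ligands Igf1 and Igf2, the receptor gene Igf1r, and the binding protein genes Igfbp2, Igfbp3, Igfbp4, Igfbp5, Igfbp6 and Igfbp7. Their UMI counts (counts of distinct captured RNA molecules) were summed per library and cell type, and the sums were compared between cell types and between genotypes.

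The first group, 4 libraries numbered 1 to 4, came from mice with an endothelial knockout of Slc38a2, labelled Slc38a2△EC, and 3 came from mice labelled Slc38a2flox/flox, called flox controls. The protein made from Slc38a2, SNAT2, carries neutral amino acids into cells together with sodium, and the study asked how the vessel wall differs when the endothelium lacks it. All 7 libraries shared the high-salt diet of 3 weeks and the same segment of aorta, so no comparison here bears on the diet itself. The strain, sex, age, Cre driver and number of animals per library were not given in the sources used here. The p-values below therefore measure only how these libraries vary, and part of that spread may be technical.

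Insulin-like growth factors are secreted peptides that signal cell growth and survival through a receptor tyrosine kinase, the product of Igf1r, and from there through insulin receptor substrates and the AKT kinases. Most of the peptide outside cells is held by binding proteins, which prolong its life, keep it from the receptor or hold it in the matrix, and which proteases of the pappalysin family cut to release it. In the artery wall, Igf1 is known as a growth and survival factor for smooth muscle.

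Of 76359 barcodes, 67477 were kept, and 62756 of them passed a marker gate for 1 of 15 cell types. The gate gave 36783 fibroblast-like, 1383 endothelial-like, 19020 smooth muscle-like and 3992 macrophage-like cells, and none of the 9 genes was a gate marker. The labels call the cells goblet cells, an intestinal and airway type, but 0 of 67477 kept cells had 3 or more goblet markers, which allows a share of up to 0.00445%. The 4 main cell types were therefore named from their own markers. Libraries held 22646246 to 73102988 UMIs, and the sums behind each value held 207090 to 1898119 UMIs in endothelial-like, 1424622 to 28989309 in smooth muscle-like, 13198044 to 41089120 in fibroblast-like and 591913 to 4229431 in macrophage-like cells. Knockout 4 stood apart: smooth muscle-like cells were 4.61% of its kept cells, against 22.1% to 43.2% in the other 6 libraries, and endothelial-like cells were 7.35%, against 0.603% to 2.17%. Between 68 and 218 barcodes were shared between any pair of libraries.

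Levels are given as CPM, UMIs of a gene per 1000000 UMIs of that cell type in that library. The targeted gene, Slc38a2, measured 197, 280, 328 and 279 CPM in endothelial-like cells of knockouts 1 to 4 and 459, 389 and 333 CPM in those of flox controls 1 to 3. The groups did not overlap, though knockout 3 and flox control 3 were close. Of the 7682 genes tested in these cells, 7.02% did not overlap, so this alone does not establish the deletion. Which part of the gene was deleted is not given in the sources used here, so a transcript that remains can still be counted.

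Fibroblast-like cells held most of the transcripts of 8 of the 9 genes. They also held 63.2% of all UMIs, and their shares of Igf1r, Igfbp7 and Igf2 were below that. Above it were 98.7% of the 207235 Igfbp6 UMIs, 96.7% of the 1072587 Igfbp5 UMIs and 95.4% of the 786901 Igfbp4 UMIs. So were 92.6% of the 3752 Igfbp3 UMIs and 86.6% of the 78006 Igf1 UMIs. Igf1r and Igfbp7 were shared out: fibroblast-like cells held 56.3% of 54542 Igf1r UMIs and smooth muscle-like cells 33.2%, and for the 1665161 Igfbp7 UMIs these shares were 54.7% and 43.5%. Igfbp2 was the gene of smooth muscle-like cells, with 94.9% of its 2856 UMIs there. Igf2 had 35 UMIs in all kept cells, 51.4% of them in fibroblast-like cells.

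**Figure D1:**
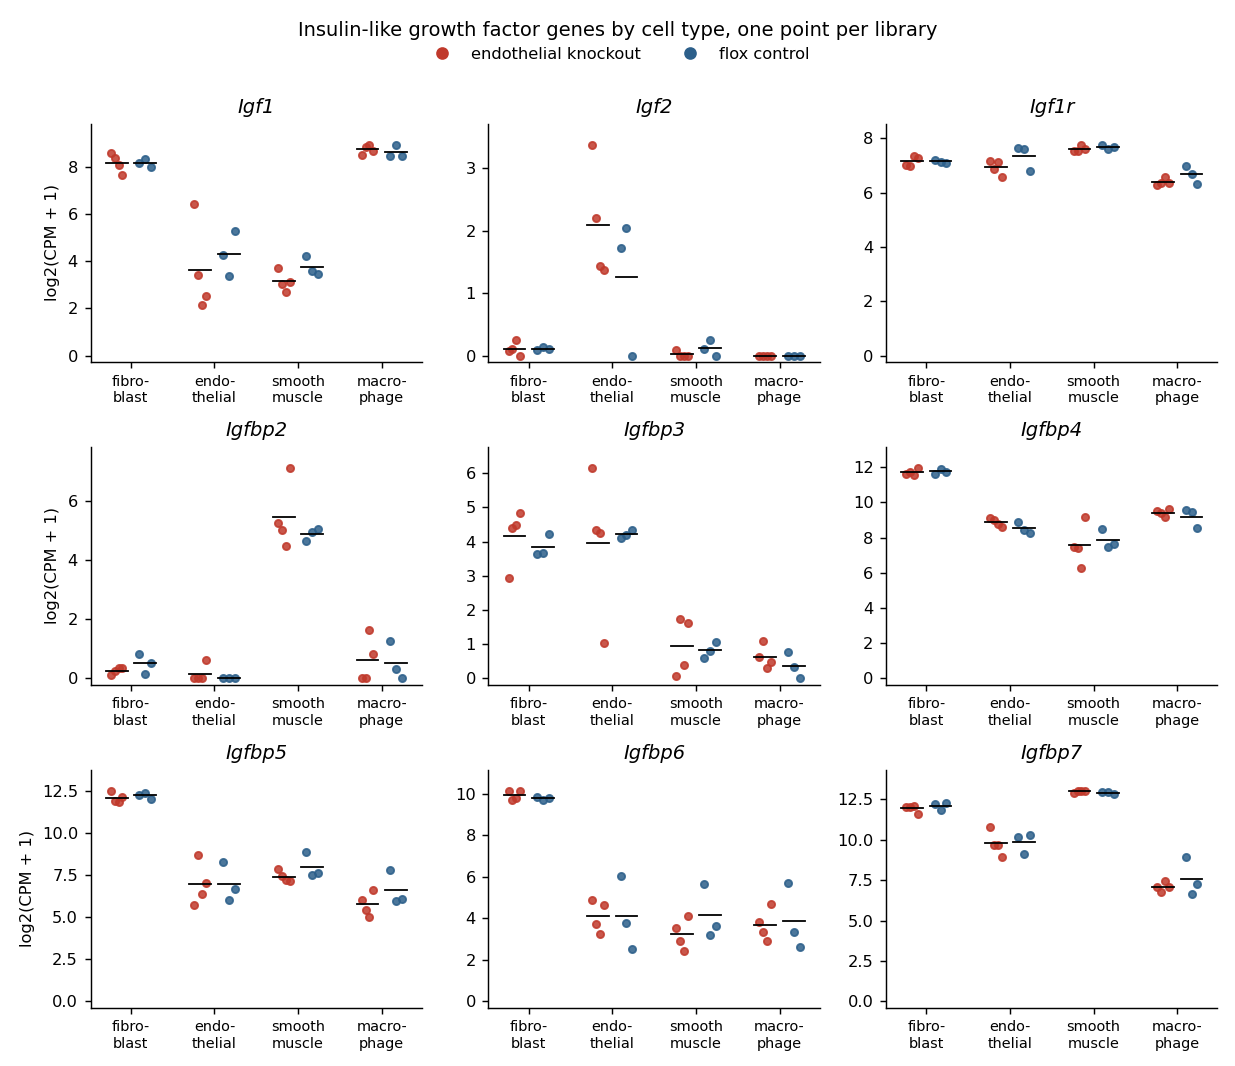
Each panel shows one gene, with log2(CPM + 1) on a vertical axis of its own, and one point per library in the 4 main cell types, knockouts left of flox controls, with a bar at the mean of the logs. Igfbp4, Igfbp5 and Igfbp6 were highest in fibroblast-like cells, Igfbp2 and Igfbp7 in smooth muscle-like cells and Igf1 in macrophage-like cells, while knockout and flox control points of a cell type overlapped for each gene.

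Between cell types, 8 of the 9 genes could be tested, and Igf2 fell under the filter on low counts. The test was edgeR's quasi-likelihood test over all genes with the library as a block, and a gene passed at a Benjamini-Hochberg adjusted p under 0.05. Between fibroblast-like and smooth muscle-like cells, 5 of the 8 were higher and 3 lower, where 75% of 12774 genes passed. Over all genes, 37.8% were higher and 37.2% lower in that contrast. Fibroblast-like against endothelial-like cells gave 5 higher and 0 lower, where 57.4% of all genes passed, 29.8% higher and 27.7% lower. Fibroblast-like against macrophage-like cells gave 6 higher and 1 lower, where 75.7% passed, 40.4% higher and 35.3% lower. Endothelial-like against smooth muscle-like cells gave 2 higher and 3 lower (60.2% passed, 29.1% higher and 31.1% lower), and endothelial-like against macrophage-like cells 4 and 2 (66.1%, 35.3% and 30.8%). Smooth muscle-like against macrophage-like cells gave 4 and 2 (81%, 44.1% and 36.9%). Most genes differ between cell types at this depth, so these counts say little by themselves, and the size and order of each gene's levels are described instead. The median log2 difference of the 8 genes was 4.08 between fibroblast-like and smooth muscle-like cells, against 0.016 over all genes, 2.79 against 0.0011 between fibroblast-like and endothelial-like cells, and 3.48 against 0.062 between fibroblast-like and macrophage-like cells.

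Igf1, on mouse chromosome 10 (GRCm38, 87858265 to 87937042, plus strand), encodes the main ligand made in adult tissues. Its level ran from 200 to 390 CPM in fibroblast-like cells (median 292), from 3.43 to 84.6 in endothelial-like cells (median 9.66), from 5.59 to 17.9 in smooth muscle-like cells (median 9.98) and from 357 to 494 in macrophage-like cells (median 412). Fibroblast-like and macrophage-like cells thus stood apart from the other pair in every library, and fibroblast-like cells were above macrophage-like cells in 1 of 7 libraries. The log2 difference of fibroblast-like from macrophage-like cells was -0.62 (SE 0.23, adjusted p = 0.0172), and without knockout 4 it was -0.52 with an adjusted p of 0.0589. Against smooth muscle-like cells, the log2 difference was 4.78 for fibroblast-like cells (SE 0.28, adjusted p = 6.24e-14) and -5.40 for smooth muscle-like against macrophage-like cells (SE 0.29, adjusted p = 5.38e-15). The endothelial-like and smooth muscle-like levels did not differ past the threshold (0.17, SE 0.44, adjusted p = 0.764), but with cell types taken from clusters the difference was 1.71 (adjusted p = 2.31e-06). Elsewhere, the 26 adipocyte-like cells gave 348 CPM of Igf1 in their pooled sum, and T-like cells 3.73 ± 6.45 CPM (SD, n = 3 libraries with at least 20 such cells).

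Igf2, the ligand of fetal growth, lies on chromosome 7 (142650766 to 142666816, minus strand) and is imprinted. Endothelial-like cells had 2, 3, 2 and 3 Igf2 UMIs in knockouts 1 to 4 and 1, 2 and 0 in flox controls 1 to 3, so 13 in all. Fibroblast-like cells had 18 UMIs, smooth muscle-like cells 4 and macrophage-like cells 0 of 19543584 UMIs, which allows up to 0.154 CPM. Pooled over libraries, this came to 2.41 CPM in endothelial-like and 0.0821 CPM in fibroblast-like cells, and the endothelial-like value was the higher in 6 of 7 libraries. All of these counts are at or near 3 UMIs per library, so no test was made. The antisense gene Igf2os (142659693 to 142670356, plus strand) overlaps Igf2, and whether counting used the strand is not given in the sources used here, so reads of the pair cannot be told apart.

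Igf1r encodes the receptor (chromosome 7, 67952827 to 68233668, plus strand) and was found in every main cell type. It ran from 126 to 160 CPM in fibroblast-like cells (median 139), 93.8 to 197 in endothelial-like cells (median 139), 183 to 216 in smooth muscle-like cells (median 196) and 76.8 to 126 in macrophage-like cells (median 81.0). Smooth muscle-like cells were above the other 3 types in 7 of 7 libraries and macrophage-like cells below them in 7 of 7, a much narrower range than that of the ligands. The log2 difference was -0.60 for fibroblast-like against smooth muscle-like cells (SE 0.10, adjusted p = 5.18e-06), -0.82 for endothelial-like against smooth muscle-like cells (SE 0.11, adjusted p = 5.32e-07) and 0.36 for endothelial-like against macrophage-like cells (SE 0.11, adjusted p = 0.00812). The last of these did not pass with cell types taken from clusters (0.27, adjusted p = 0.0816). Fibroblast-like and endothelial-like cells, neighbours in this order, did not differ past the threshold (0.22, SE 0.11, adjusted p = 0.087), but they did without flox control 1 (0.31, adjusted p = 0.0186), without flox control 2 (0.31, adjusted p = 0.0252) and with no filter on low counts (0.44, adjusted p = 0.00137). Among rarer types, Igf1r reached 353 ± 44.4 CPM in mast-like cells (SD, n = 5 libraries), 387 CPM in the pooled sum of 219 neutrophil-like cells and 367 CPM in that of 74 Schwann-like cells, and was 58.6 ± 13.4 CPM in monocyte- or dendritic-like cells (SD, n = 3).

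Igfbp2 and Igfbp5, which differed in opposite directions between fibroblast-like and smooth muscle-like cells, are neighbours on chromosome 1. Igfbp2 lies at 72824503 to 72852474 on the plus strand and Igfbp5 at 72857932 to 72874884 on the minus strand, so their ends are 5457 bases apart. The 250 bases before the RefSeq start of each are shown, with those of Igfbp4 and Igfbp7. Differences of these 4 genes within fibroblast-like or smooth muscle-like cells are described further on. Igf1 and Igfbp3 also differed within fibroblast-like cells, and their windows are not printed. The windows shown are from build GRCm38.p6: Igfbp2 at chr1:72824230-72824479 (plus strand), Igfbp5 at chr1:72874866-72875115 (minus strand), Igfbp4 at chr11:99040994-99041243 (plus strand) and Igfbp7 at chr5:77408046-77408295 (minus strand). Capitals mark the GC box and TATA box letters found on either strand.
Igfbp2: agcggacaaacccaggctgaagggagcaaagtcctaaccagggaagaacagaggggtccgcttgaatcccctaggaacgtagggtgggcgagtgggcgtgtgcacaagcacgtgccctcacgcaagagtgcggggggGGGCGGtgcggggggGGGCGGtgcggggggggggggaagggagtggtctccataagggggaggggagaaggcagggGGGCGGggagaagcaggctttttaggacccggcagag
Igfbp5: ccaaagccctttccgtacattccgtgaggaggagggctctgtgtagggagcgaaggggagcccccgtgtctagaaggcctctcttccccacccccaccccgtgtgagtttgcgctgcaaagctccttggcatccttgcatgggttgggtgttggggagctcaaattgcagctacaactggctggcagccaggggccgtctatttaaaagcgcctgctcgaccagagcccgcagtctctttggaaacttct
Igfbp4: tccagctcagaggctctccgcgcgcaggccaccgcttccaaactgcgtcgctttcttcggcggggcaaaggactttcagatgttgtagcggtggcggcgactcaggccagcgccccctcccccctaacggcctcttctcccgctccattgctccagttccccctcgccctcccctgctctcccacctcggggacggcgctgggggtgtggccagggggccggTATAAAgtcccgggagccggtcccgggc
Igfbp7: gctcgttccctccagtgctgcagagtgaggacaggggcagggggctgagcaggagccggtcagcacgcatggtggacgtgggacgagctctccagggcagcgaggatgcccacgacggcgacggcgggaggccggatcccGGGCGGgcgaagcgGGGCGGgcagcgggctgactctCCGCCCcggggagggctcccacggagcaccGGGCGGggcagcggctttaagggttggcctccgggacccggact
The patterns searched were the GC box GGGCGG, the TATA box TATAAA, the AP-1 site TGANTCA and the CArG box, on both strands; the letters of a TATA box can lie inside a CArG box. Igfbp2 held 3 GC boxes, ending 107, 92 and 31 bases before the start, Igfbp7 held 4, at 104, 90, 68 and 38 bases, and Igfbp4 held a TATA box at 22 bases. None of the 4 patterns is in the Igfbp5 window. RefSeq gives Igfbp2 another start, whose window (chr1:72825137-72825386, plus strand) is not printed and held an AP-1 site ending 32 bases before that start. Over the 32851 RefSeq promoter windows of the same length, 32.7% held a GC box, 12.4% a TATA box, 6.75% an AP-1 site and 1.47% a CArG box. These matches describe letters and were not tied to any level below.

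Igfbp2 encodes a secreted carrier of both ligands. It measured 37.8, 31.4, 21.6 and 140 CPM in smooth muscle-like cells of knockouts 1 to 4 and 24.0, 30.2 and 32.2 CPM in those of flox controls 1 to 3. In fibroblast-like cells it ran from 0.0819 to 0.783 CPM, in macrophage-like cells from 0 to 2.13 CPM, and endothelial-like cells held 1 UMI in all. Smooth muscle-like cells were thus the higher in 7 of 7 libraries against each other type. Fibroblast-like cells were lower than smooth muscle-like cells by a log2 difference of -7.08 (SE 0.31, adjusted p = 3.6e-16), and smooth muscle-like cells were higher than macrophage-like cells by 5.62 (SE 0.44, adjusted p = 1.01e-11).

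Igfbp3 encodes the main carrier of the ligands in blood. Its gene lies on chromosome 11 (7206086 to 7213923, minus strand), 3539 bases from Igfbp1. It ran from 6.66 to 27.7 CPM in fibroblast-like cells (median 17.8), 1.05 to 70.5 in endothelial-like cells (median 18.0), 0.060 to 2.35 in smooth muscle-like cells (median 0.735) and 0 to 1.15 in macrophage-like cells (median 0.384). Fibroblast-like cells were above smooth muscle-like cells in 7 of 7 libraries (log2 difference 4.30, SE 0.42, adjusted p = 1.17e-09). Fibroblast-like and endothelial-like cells did not differ past the threshold (0.35, SE 0.46, adjusted p = 0.555), and neither did smooth muscle-like and macrophage-like cells (0.64, SE 1.06, adjusted p = 0.585). The 67 lymphatic endothelial-like cells had 64 Igfbp3 UMIs, or 184 CPM pooled.

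Igfbp4 encodes a carrier that mostly restrains the ligands and is cut by the product of Pappa (chromosome 11, 99041244 to 99054392, plus strand). Its level ran from 3059 to 4021 CPM in fibroblast-like cells (median 3394), 304 to 550 in endothelial-like cells (median 431), 77.6 to 571 in smooth muscle-like cells (median 176) and 380 to 791 in macrophage-like cells (median 688). Fibroblast-like cells were above each other type in 7 of 7 libraries, with log2 differences of 3.86 from smooth muscle-like (SE 0.24, adjusted p = 3e-13), 3.21 from endothelial-like (SE 0.24, adjusted p = 1.77e-11) and 2.37 from macrophage-like cells (SE 0.23, adjusted p = 7.48e-10). Endothelial-like cells were below macrophage-like cells in 7 of 7 libraries (-0.84, SE 0.23, adjusted p = 0.00193). They were above smooth muscle-like cells in 6 of 7 (0.65, SE 0.23, adjusted p = 0.0168), a call that was lost without knockout 1 (adjusted p = 0.0656), knockout 2 (0.0963) or knockout 3 (0.106). T-like cells, not known as a source of binding proteins, gave 78.8 ± 35.4 CPM of Igfbp4 (SD, n = 3), so a level of that size can be background.

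Igfbp5 encodes a carrier that attaches to the matrix and is cut by the product of Pappa2. Its level ran from 3686 to 5904 CPM in fibroblast-like cells (median 4568), 51.7 to 414 in endothelial-like cells (median 101), 140 to 466 in smooth muscle-like cells (median 181) and 31.5 to 227 in macrophage-like cells (median 64.3). Fibroblast-like cells lay far above the other 3 types in 7 of 7 libraries, by log2 differences of 4.44 from smooth muscle-like (SE 0.33, adjusted p = 9.21e-12), 5.16 from endothelial-like (SE 0.36, adjusted p = 4.84e-12) and 5.98 from macrophage-like cells (SE 0.37, adjusted p = 1.11e-13). T-like cells gave 69.1 ± 25.5 CPM (SD, n = 3), so the median macrophage-like level is no higher than in a type not known to make it. Lymphatic endothelial-like cells stood out, with 3868 Igfbp5 UMIs in 67 cells, or 11126 CPM pooled, and 9442 CPM in flox control 2, the one library with at least 20 of them. Endothelial-like cells did not differ from smooth muscle-like cells past the threshold (-0.72, SE 0.32, adjusted p = 0.0561), but did so without knockout 2 (-1.22, adjusted p = 0.000558), with the stricter gate (-0.83, adjusted p = 0.0238) and with no filter (-0.90, adjusted p = 0.00844). With cell types taken from clusters instead of the gate, this difference was 1.74 (adjusted p = 0.000229), and the endothelial clusters then held 65 of the 67 lymphatic endothelial-like cells. Endothelial-like cells were above macrophage-like cells (0.82, SE 0.33, adjusted p = 0.0326), a call lost without knockout 2 (0.29, adjusted p = 0.38) and without knockout 3 (0.76, adjusted p = 0.0821).

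Igfbp6, on chromosome 15 (102144362 to 102149511, plus strand), encodes a carrier with a preference for Igf2. It ran from 824 to 1136 CPM in fibroblast-like cells (median 898), against 4.83 to 64.2 in endothelial-like, 4.42 to 50.1 in smooth muscle-like and 5.07 to 51.9 in macrophage-like cells. The fibroblast-like range did not overlap the others, with log2 differences of 5.97, 6.35 and 6.09 (SE 0.34, 0.30 and 0.30; adjusted p = 7.52e-14, 8.59e-16 and 1.98e-15). No pair of the other 3 types differed past the threshold with the gate. With cell types taken from clusters, Igfbp6 passed for endothelial-like against smooth muscle-like cells (0.998, adjusted p = 0.0111) and for smooth muscle-like against macrophage-like cells (-0.999, adjusted p = 0.00304). T-like cells gave 13.2 ± 13.0 CPM (SD, n = 3), within the ranges of those 3 types.

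Igfbp7 encodes a secreted protein that binds the ligands only weakly and is laid down in vessel walls (chromosome 5, 77349240 to 77408041, minus strand). It ran from 3105 to 4862 CPM in fibroblast-like cells (median 4258), 498 to 1781 in endothelial-like cells (median 834), 7400 to 8444 in smooth muscle-like cells (median 8015) and 97.6 to 482 in macrophage-like cells (median 136). The order was the same in 7 of 7 libraries: smooth muscle-like, fibroblast-like, endothelial-like, macrophage-like. The log2 difference was -1.08 for fibroblast-like against smooth muscle-like cells (SE 0.22, adjusted p = 0.000102), 2.37 for fibroblast-like against endothelial-like cells (SE 0.23, adjusted p = 2.94e-09) and 2.22 for endothelial-like against macrophage-like cells (SE 0.24, adjusted p = 8.25e-09). The 74 Schwann-like cells had 4672 CPM pooled, and T-like cells 83.0 ± 46.2 CPM (SD, n = 3).

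Endothelial-like cells were not uniform for Igfbp7. Of the 1383, 1208 lay in one cluster, built without the 9 genes, and 175 lay in other clusters, with 11 to 42 of these per library. Igfbp7 ran from 268 to 575 CPM in the largest cluster and from 2257 to 4600 CPM in the other cells, Igf1 from 0 to 9.43 CPM and from 15.9 to 230 CPM, and Igfbp4 from 332 to 609 CPM and from 54.8 to 447 CPM. In 7 of 7 libraries the largest cluster was the lower for Igfbp7 and Igf1 and the higher for Igfbp4. For Igf1 the other cells of knockouts 2, 3 and 4 held only 2 UMIs each, under the floor of 3 UMIs. Flox control 3 had 11 such cells, under the minimum of 20 used for tests. All 13 endothelial-like Igf2 UMIs were in the largest cluster, which also held 1208 of the 1383 cells. In the other cells a floor of 3 UMIs stood at 23.9 to 72.7 CPM per library, so no restriction of Igf2 to that cluster is shown. The 10 endothelial markers summed to 21734 CPM in the largest cluster and 8256 CPM in the other cells, the 10 fibroblast markers to 1521 and 1200 CPM, and the 10 smooth muscle markers to 655 and 747 CPM, with 1 of the 10 at 0 in the other cells. The 6 lymphatic endothelial markers summed to 36.3 CPM in the largest cluster, with 1 at 0, and to 94.0 CPM in the other cells, with 3 at 0. The 10 macrophage markers summed to 89.7 CPM in the largest cluster, with none at 0, and to 112 CPM in the other cells, with 2 at 0. The part of other cell types in the difference was not tested. The split is a description of clusters, with no test. It bears on some contrasts. In the largest cluster alone, Igf1 was lower in endothelial-like than in smooth muscle-like cells (log2 difference -1.41, adjusted p = 0.00775 by edgeR). Igfbp3 was then higher in fibroblast-like than in endothelial-like cells (2.38, adjusted p = 0.00025). With that cluster alone, Igfbp5 no longer passed for endothelial-like against macrophage-like cells (0.46, adjusted p = 0.265). It newly passed for endothelial-like against smooth muscle-like cells (-1.08, adjusted p = 0.009).

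A part of the 36783 fibroblast-like cells was divided by its own sub-markers into groups, and the larger part joined none of them. Each group is named after genes of its marker list, of which at least 3 had to be detected. The group named after Pi16 and Dpp4, genes of an adventitial fibroblast found around vessels, had 5133 cells, and the Fmod Hhip group 5188. The Il6 Lif group had 5489 cells, and the Cilp Myoc Angptl1 group 801. Mean Igfbp5 was highest in Pi16 Dpp4 cells and mean Igfbp4 and Igfbp7 in Fmod Hhip cells. Mean Igf1 was highest in the small group with Cilp, Myoc and Angptl1. Igfbp7 ran from 3507 to 5267 CPM in Il6 Lif cells and Igfbp4 from 3038 to 4295 CPM in Cilp Myoc Angptl1 cells. Both ranges overlapped those of Fmod Hhip cells, and only Pi16 Dpp4 against Fmod Hhip cells was tested. Igfbp5 measured 8805, 9564, 11209 and 10013 CPM in Pi16 Dpp4 cells of knockouts 1 to 4 and 10255, 11693 and 11487 CPM in those of flox controls 1 to 3, against 1807 to 4364 CPM in Fmod Hhip cells. The groups of cells did not overlap in any library, and the log2 difference was 1.88 (SE 0.14, adjusted p = 2.58e-12). In this contrast 5 of the 7 tested genes passed, 2 higher and 3 lower, where 43.3% of 11510 genes passed, 21.3% higher and 22% lower.

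Igfbp7 went the other way, with 1717 to 2874 CPM in Pi16 Dpp4 cells (median 2468) and 4440 to 5677 CPM in Fmod Hhip cells (median 5276), a log2 difference of -1.15 (SE 0.08, adjusted p = 3.62e-13). Igfbp4 ran from 2244 to 3567 CPM in Pi16 Dpp4 cells (median 2916) and from 3875 to 5805 CPM in Fmod Hhip cells (median 4699; log2 difference -0.78, SE 0.06, adjusted p = 9.75e-12). Neither gene's ranges overlapped. Igf1 ran from 105.9 to 249.4 CPM in Pi16 Dpp4 cells and from 156 to 325 CPM in Fmod Hhip cells; these ranges overlapped, but Pi16 Dpp4 cells were lower within 7 of 7 libraries (-0.57, SE 0.10, adjusted p = 2.57e-05). Igfbp3 was higher in Pi16 Dpp4 cells in 6 of 7 libraries (1.32, SE 0.48, adjusted p = 0.0271), a call lost without flox control 2 (adjusted p = 0.0534) or knockout 3 (0.107). Igfbp6 did not pass (0.24, SE 0.10, adjusted p = 0.0551), though it passed without knockout 2 (0.28, adjusted p = 0.0403) or knockout 4 (0.37, adjusted p = 0.00184) or with no filter (0.25, adjusted p = 0.000806), and Igf1r did not pass (adjusted p = 0.599). The median cell had 6448 UMIs in the Pi16 Dpp4 group and 6034.5 in the Fmod Hhip group. In Cilp Myoc Angptl1 cells Igf1 ran from 360 to 836 CPM (623 ± 178, SD, n = 7), a level with no test of its own.

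**Figure D2:**
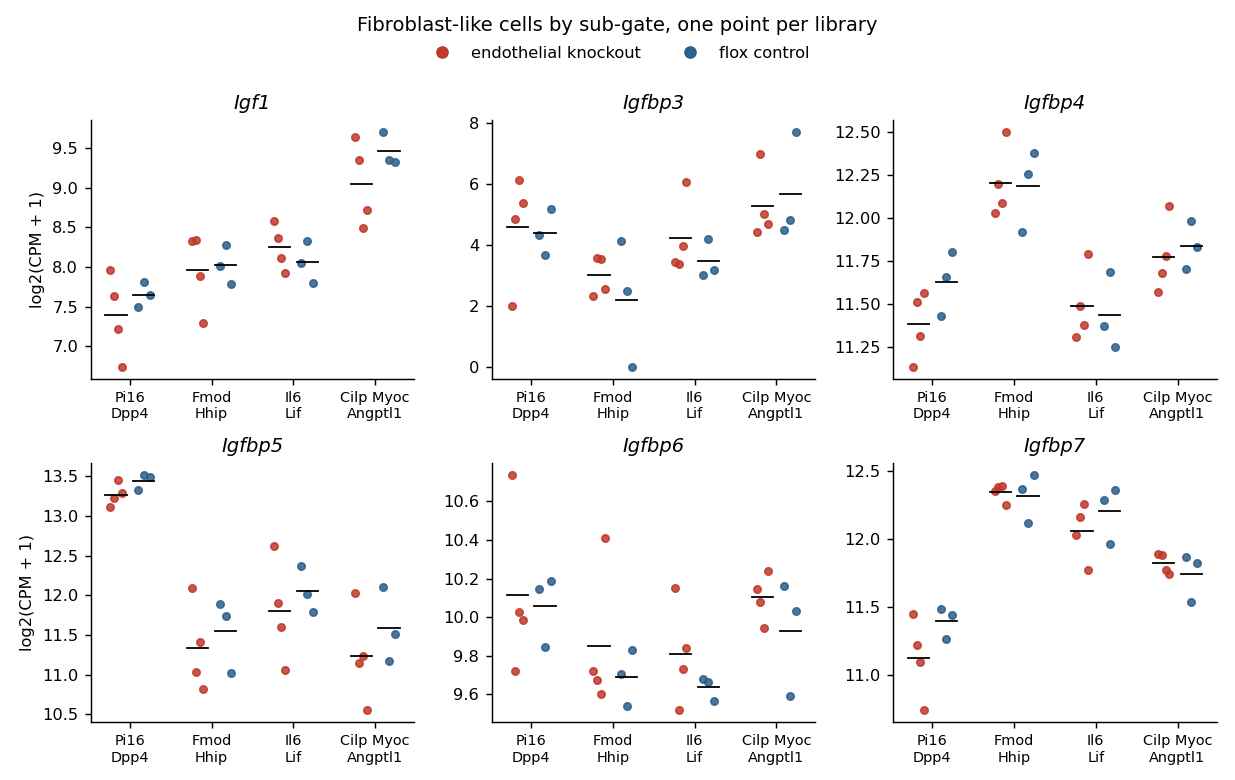
Each panel shows one gene as log2(CPM + 1), on an axis that does not start at 0, with one point per library in the 4 groups of fibroblast-like cells, knockouts left of flox controls, and a bar at the mean of the logs. All 7 Igfbp5 points of Pi16 Dpp4 cells, 8805 to 11693 CPM, lie above those of Fmod Hhip cells, 1807 to 4364 CPM, and the Igfbp7 points lie in the opposite order.

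Smooth muscle-like cells were divided by Rgs5, a regulator of G-protein signalling that marks pericytes and part of the arterial smooth muscle. Among 16381 cells of at least 2000 UMIs, 10625 had 2 or more Rgs5 UMIs and 4345 had 0, with median depths of 4985 and 4596 UMIs. Igfbp2 measured 25.7, 12.2, 18.7 and 99.7 CPM in Rgs5-positive cells of knockouts 1 to 4 and 18.9, 11.7 and 21.7 CPM in those of flox controls 1 to 3. In Rgs5-negative cells it measured 103, 50.4, 27.0 and 164 CPM in the knockouts and 35.6, 64.0 and 49.4 CPM in the flox controls. Rgs5-positive cells were the lower in 7 of 7 libraries, with a log2 difference of -1.48 (SE 0.17, adjusted p = 1.82e-06), although the ranges over libraries overlapped. In knockout 4 only 37 cells were Rgs5-positive and 209 Rgs5-negative, the reverse of the ratio in each other library.

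Of 7 tested genes, 1 was higher and 3 were lower in Rgs5-positive cells, where 7.09% of 10980 genes passed, 2.7% higher and 4.39% lower. Igfbp4 ran from 65.3 to 355 CPM in Rgs5-positive and from 109 to 630 CPM in Rgs5-negative cells, lower in 6 of 7 libraries (log2 difference -0.88, SE 0.10, adjusted p = 2.46e-06). Igfbp5, the gene that was higher, ran from 109 to 510 CPM in Rgs5-positive and from 97.0 to 300.2 CPM in Rgs5-negative cells (0.69, SE 0.09, adjusted p = 1.31e-05), with the opposite order in knockout 4. So Igfbp2 and Igfbp5, neighbours in the genome, differed in opposite directions between these cells. Igfbp7 was lower in 6 of 7 libraries, but the difference was small (-0.14, SE 0.03, adjusted p = 0.00877) and did not pass without knockout 3 (-0.13, adjusted p = 0.0603). Igf1 (0.31, adjusted p = 0.357), Igf1r (-0.05, adjusted p = 0.736) and Igfbp6 (-0.08, adjusted p = 0.881) did not pass.

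**Figure D3:**
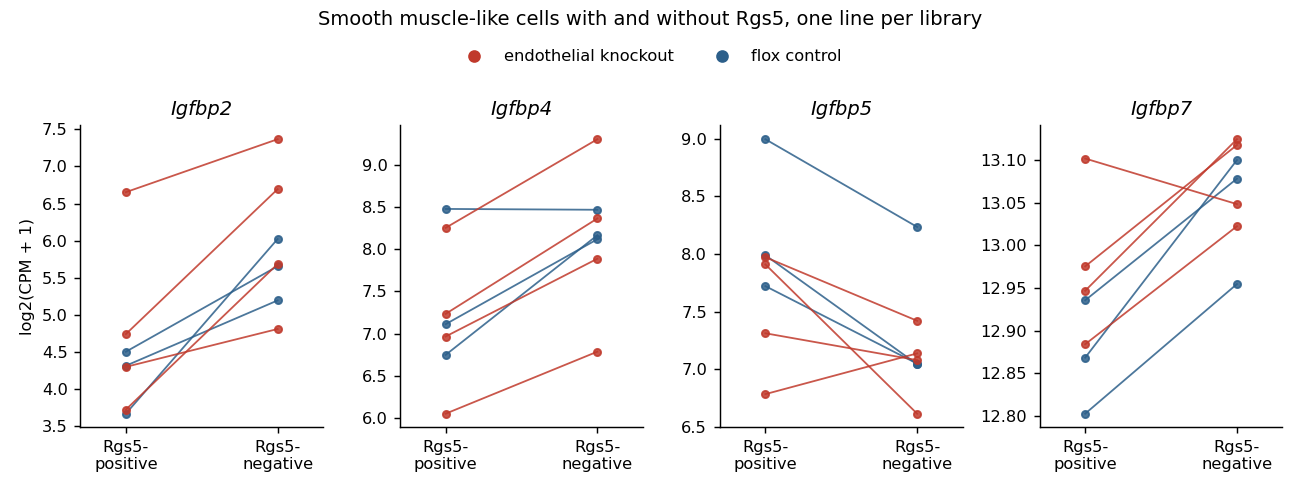
Each line joins the Rgs5-positive and Rgs5-negative smooth muscle-like cells of one library, as log2(CPM + 1), on axes that do not start at 0 and whose spans differ between genes. The 7 Igfbp2 lines all end higher in Rgs5-negative cells, and 6 of 7 Igfbp5 lines end lower there, the exception being knockout 4.

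Between genotypes, the low-count filter left 7 of the 9 genes in endothelial-like, 8 in smooth muscle-like, 7 in fibroblast-like and 6 in macrophage-like cells. Igf2 was left in none of them. No gene that was left passed in any of the 4 main cell types, and neither did any other gene by this test (0% of 7682 genes in endothelial-like, 12852 in smooth muscle-like, 15422 in fibroblast-like and 10417 in macrophage-like cells). At an unadjusted p under 0.05 stood 397, 658, 679 and 762 of those genes. DESeq2 called 0, 7, 6 and 3 genes in the same order, none of them among the 9. The ranges of the 2 genotypes overlapped for each of the 9 genes in each of the 4 types, tested or not, where 7.02%, 5.38%, 4.68% and 8.24% of the tested genes did not overlap. For Igf2 in macrophage-like cells the overlap is only that of counts of 0 in every library. Counts were also simulated with the mean levels and totals of the fibroblast-like sums. Their spread was set to the same value for all genes and was not estimated from these data. The test recovered 98% of 4-fold and 52% of 2-fold changes, so a change of 2-fold or less can be missed. The other types had no such simulation between genotypes, so these shares do not carry over to them.

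Igf1r in endothelial-like cells, the type to which the label assigns the knockout, measured 141, 117, 139 and 93.8 CPM in knockouts 1 to 4 and 197, 191 and 111 CPM in flox controls 1 to 3. Most knockout values were lower, but flox control 3 lay below 3 of the 4 knockouts. The log2 fold change was -0.44 (SE 0.22, unadjusted p = 0.0658, adjusted p = 0.852). The change in endothelial-like cells minus that in smooth muscle-like cells was -0.47 (SE 0.20, unadjusted p = 0.0301, adjusted p = 1). Igfbp4 in endothelial-like cells averaged 471 ± 75.0 CPM in knockouts and 376 ± 88.5 CPM in flox controls (SD, n = 4 and 3; log2 fold change 0.36, SE 0.20, adjusted p = 0.852), and Igfbp7 984 ± 554 and 993 ± 370 CPM.

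Igfbp6 and Igfbp5 had the smallest p-values in cells other than endothelial, and both estimates moved most when flox control 1 was left out. Igfbp6 in smooth muscle-like cells measured 10.7, 6.51, 4.42 and 16.1 CPM in knockouts 1 to 4 and 50.1, 8.09 and 11.4 CPM in flox controls 1 to 3, a log2 fold change of -1.44 (SE 0.60, unadjusted p = 0.0397, adjusted p = 0.919). Igfbp5 in macrophage-like cells measured 64.3, 42.5, 31.5 and 96.0 CPM in knockouts and 227, 60.5 and 67.6 CPM in flox controls (-1.04, SE 0.46, unadjusted p = 0.046, adjusted p = 0.668). Without flox control 1 the estimates were -0.22 and -0.17. The 10 fibroblast markers were also highest in that library: they summed to 902, 609, 371 and 1194 CPM in macrophage-like cells of knockouts 1 to 4 and to 2362, 550 and 907 CPM in those of flox controls 1 to 3. In smooth muscle-like cells they summed to 3386 to 3969 CPM in the knockouts and to 4912, 3698 and 3452 CPM in the flox controls, with none of the 10 markers at 0 in any library. In flox control 1, 9 of the 10 peaked in macrophage-like and 8 of the 10 in smooth muscle-like cells. The part of fibroblast RNA in these values was not tested.

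Igfbp2 in smooth muscle-like cells, with the values given above, averaged 57.8 ± 55.5 CPM in knockouts and 28.8 ± 4.28 CPM in flox controls (SD, n = 4 and 3). The log2 fold change was 0.89 (SE 0.57, adjusted p = 0.919), and 0.14 without knockout 4, the library with few smooth muscle-like cells. In fibroblast-like cells, where counts were deepest, the log2 fold changes of the 7 tested genes lay between -0.11 for Igfbp7 and 0.51 for Igfbp3, whose SE was 0.42. The difference of the genotype effect between fibroblast-like and smooth muscle-like cells was -1.80 for Igfbp2 (SE 0.77, unadjusted p = 0.0294) and 1.05 for Igfbp6 (SE 0.49, unadjusted p = 0.044), both with an adjusted p of 1, and 0 of 8 genes passed. Leaving out 1 library gave -2.52 to -0.71 for Igfbp2 and 0.39 to 1.56 for Igfbp6, and the values nearest to 0, -0.71 and 0.39, were those without flox control 1. Igf1 averaged 299 ± 82.3 CPM in knockouts and 292 ± 32.9 CPM in flox controls in fibroblast-like cells, and 432 ± 54.9 and 403 ± 78.8 CPM in macrophage-like cells (SD, n = 4 and 3).

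**Figure D4:**
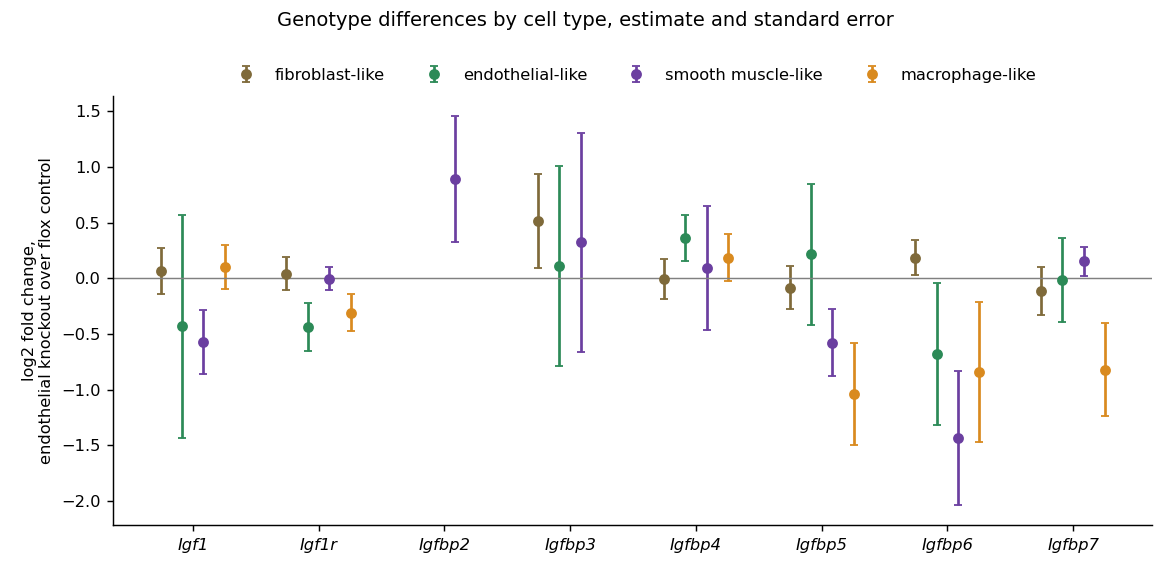
Points show the log2 fold change of endothelial knockout over flox control for each tested gene and cell type, and bars reach 1 standard error to each side. The estimates run from -1.44 for Igfbp6 in smooth muscle-like cells to 0.89 for Igfbp2 in the same cells, and none passed after adjustment.

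A list of 32 other genes of the pathway covers receptors, proteases, protease inhibitors and signalling adaptors. It was counted in the same fits. Between fibroblast-like and smooth muscle-like cells, 15 of 26 tested were higher and 7 lower (75% of all genes passed), led by Lrp1, an endocytic receptor (2.12), Pappa, the protease of Igfbp4 (3.34), Grb10, an adaptor that dampens receptor signalling (1.82), and Grb14, its relative (-2.22). Between fibroblast-like and endothelial-like cells 16 were higher and 5 lower (57.4% of all genes), led by Lrp1 (4.97), the kinase Akt2 (2.45), the receptor substrate Irs2 (3.37) and the kinase subunit Pik3r1 (2.26). Between fibroblast-like and macrophage-like cells 19 were higher and 3 lower (75.7%), led by Grb10 (4.66), the Igf2 receptor gene Igf2r (3.42), the serine protease Htra1 (4.94) and the transcription factor Foxo1 (1.64). All of these are log2 differences.

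Endothelial-like against smooth muscle-like cells gave 5 of 26 higher and 15 lower (60.2% of all genes passed), led by Akt2 (-2.13), Lrp1 (-2.86), Grb14 (-4.36) and Irs2 (-2.71). Between endothelial-like and macrophage-like cells 12 were higher and 8 lower (66.1%), led by Htra1 (4.87), Igf2r (3.21), Foxo1 (1.71) and Socs2, which dampens growth hormone signalling (3.66). Between smooth muscle-like and macrophage-like cells 16 were higher and 6 lower (81%), led by Htra1 (5.06), Igf2r (2.86), Socs2 (3.43) and Grb14 (5.06). The median log2 difference of the list was 0.32, 0.61, 1.27, -0.57, 0.25 and 0.88 in the order of these 6 contrasts, against 0.016, 0.0011, 0.062, -0.0036, 0.093 and 0.12 over all genes. Since most genes passed in each contrast, the counts of the list are not read as a result about it.

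Within fibroblast-like cells, 4 of 27 tested pathway genes were higher and 8 lower in Pi16 Dpp4 cells than in Fmod Hhip cells (43.3% of all genes passed), led by Grb10 (1.03), Pik3r1 (-0.92), Grb14 (-1.27) and Pappa2, the protease of Igfbp5 (2.25). Pappa2 and Igfbp5 were thus both higher in Pi16 Dpp4 cells, and Pappa (-1.21, adjusted p = 2.17e-06) and Igfbp4 both lower. In smooth muscle-like cells 4 of 25 were higher and 2 lower in Rgs5-positive cells (7.09% of all genes passed), led by Pappa2 (-4.37, SE 0.45, adjusted p = 5.86e-07), Pik3r1 (0.41), Irs2 (-0.35) and the growth hormone receptor gene Ghr (0.23). Here Pappa2 was lower where Igfbp5 was higher. The list's median log2 difference was -0.089 in the first of these contrasts and 0.0092 in the second, against 0.013 and -0.0044 over all genes. Pappa was named for its role, after its values were seen.

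Between genotypes 0 of 20 pathway genes passed in endothelial-like, 0 of 26 in smooth muscle-like, 0 of 29 in fibroblast-like and 0 of 21 in macrophage-like cells. The 4 with the smallest p in each type are given as log2 fold changes, none of which passed. In endothelial-like cells they were Grb10 (-0.47), the RNA-binding protein gene Igf2bp2 (0.63), the Igfbp3 receptor gene Tmem219 (0.68) and Lrp1 (-0.65). In smooth muscle-like cells they were Pappa2 (-1.83), Tmem219 (0.27), Socs2 (0.36) and Pappa (-0.67). In fibroblast-like cells they were the kinase Akt1 (0.29), Igfals, which encodes a partner of Igfbp3 in blood (-0.75), the pappalysin inhibitor gene Stc2 (-0.37) and Tmem219 (0.16). In macrophage-like cells they were Htra1 (-1.0), Ghr (-0.88), Akt1 (0.31) and Grb10 (-0.82). The smallest adjusted p among them was 0.668, by edgeR.

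The genes most like each of the 9 in their level were found by Pearson's r over 8 cell types, on the log2 of the mean CPM. The 6562 genes searched passed a minimum level in some type, and gate markers and the 9 genes were left out. The 8 cell types share their libraries and differ in depth, and r is given as a description. Igfbp5 was followed by C1s1 (0.996) and Lama2 (0.992), Igfbp6 by Cygb (0.994) and Bicc1 (0.992), and Igfbp7 by Ccn2 (0.993) and Cped1 (0.988). Igf1 was followed by Ang (0.965) and Selenop (0.945), Igfbp4 by Rnase4 (0.967) and Ctsl (0.956), and Igf1r by Edem3 (0.98) and Mlf1 (0.958). Igfbp3 was followed by Tspan12 (0.971) and Naaladl2 (0.97), Igfbp2 by E030013I19Rik (0.968) and Itih4 (0.967), and Igf2, on its 35 UMIs, by Cyp1a1 (0.999) and Car4 (0.998).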

How the data were processed

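For each library the authors deposited a matrix of raw UMI counts (genes by barcodes), not normalized, with at least 500 UMIs per barcode. The submitters' processing notes name CASAVA 1.8, STARsolo 2.7.10a, Seurat and build mm10; what each did, the annotation and the barcode rule were not given in the sources used here. Per the labels' protocols, tissue was digested with enzymes and captured on BD Rhapsody.

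Cells with under 200 genes or over 25% mitochondrial counts were dropped, leaving 68662, and Scrublet in scanpy 1.11.5 (expected rate 0.06) removed 1185 doublets, 0.869% to 2.07% per library. A cell joined a type when at least 3 of its markers were detected and its score, the mean marker level capped at the 90th percentile, led by at least 0.1; 4721 cells (7%) joined none. Leiden clustering (leidenalg 0.10.2, resolution 1.0, 30 components, 20 neighbours, 23 clusters) left out the 9 genes and served the endothelial split and an alternative. Counts were summed per library and type (at least 20 cells) and tested in R 4.3.3 with edgeR 4.0.16 (TMM, filterByExpr, quasi-likelihood, Benjamini-Hochberg adjusted p under 0.05), by genotype within a type, or by type with the library as a block. DESeq2 1.42.0 was an alternative. CPM use the sum of all genes. Counting error and floors of 3 UMIs cover counting only. The edgeR code was tested on simulated data.

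All 9 genes are named, with the 4 pathway genes of smallest p in each comparison and the 2 genes of highest r. The genes and lists were chosen with earlier results of these data known. The flox controls are numbered in the order of their names, since 1 label gives another number. Gene coordinates come from GENCODE for GRCm38 and promoter sequences from RefSeq (GRCm38.p6).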

Additional observations from a re-analysis of the deposited data

Results flagged for a closer look

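In 56 groups of 4 knockout libraries, 5 held a library whose gap to the nearest other, as a share of the group's range, was over Dixon's critical value. Chance flags about 1 in 20 groups, so some of these flags are what chance gives. Igf1 in endothelial-like cells was 84.6 CPM in knockout 1 (18 UMIs in 60 cells) and 3.43 to 9.66 CPM in the other knockouts, a gap share of 0.923. Igfbp2 in smooth muscle-like cells was 140.4 CPM in knockout 4 (200 UMIs in 332 cells) and 21.6 to 37.8 CPM in the others (0.864). In Rgs5-positive cells it was 99.7 CPM in knockout 4 (21 UMIs in 37 cells) and 12.2 to 25.7 CPM in the others (0.845). Igf1r in Fmod Hhip fibroblast-like cells was 163 CPM in knockout 3 and 125 to 129 CPM in the others (0.897). Igfbp6 in Fmod Hhip cells was 1358 CPM in knockout 4 and 776 to 842 CPM in the others (0.886).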

How the results depend on the processing

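Over the alternatives, 1111 values were recomputed for 93 results on the 9 genes: 1026 kept their direction and side of the threshold, 60 changed sign, 14 newly passed and 11 no longer passed. Between cell types 655 of 692 held. Between genotypes 371 of 419 held and 48 changed sign, and none of 450 values passed (lowest adjusted p 0.0962). The causes were not tested.

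Counts of all genes passed between genotypes moved from 0 as follows. Without a filter on low counts they were 51 in endothelial-like, 7 in smooth muscle-like and 30 in macrophage-like cells, and 1 for the difference between fibroblast-like and smooth muscle-like cells. DESeq2 gave 7 in smooth muscle-like, 6 in fibroblast-like and 3 in macrophage-like cells. The correlations of same-numbered libraries were -0.035 to 0.229, under 0.1 in each cell type for at least 1 number. No value for differently numbered libraries stands beside them, so they do not decide whether replicate numbers pair the libraries. A replicate block gave 4 in smooth muscle-like, 7 in fibroblast-like and 1 in macrophage-like cells. Leaving out 1 library gave 0 to 3, 0 to 5 and 0 to 1, the highest without knockout 4 each time.

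Log2 fold changes between genotypes that changed sign were these. In endothelial-like cells, without a filter Igfbp7 0.0271; with the stricter gate Igfbp5 -0.0562; with types from clusters Igf1 0.48, Igfbp3 -0.45, Igfbp5 -0.75 and Igfbp7 0.21; at 10% mitochondrial counts at most Igfbp7 0.0938; with DESeq2 Igf1 0.10; and with the replicate block Igf1 0.0593 and Igfbp7 0.20. In smooth muscle-like cells, without a filter Igf1r 0.0255; with types from clusters Igf1r 0.0148 and Igfbp3 -0.31; at 10% mitochondrial counts Igfbp2 -0.15, Igfbp4 -0.27 and Igfbp7 -0.038; and with the replicate block Igfbp3 -0.22 and Igfbp4 -0.73. In fibroblast-like cells, without a filter Igfbp4 0.0031, and with the replicate block Igf1r -0.003 and Igfbp7 0.0123.

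Leaving out 1 library gave ranges across 0 for these genotype values. In endothelial-like cells they were -0.89 to 0.15 for Igf1, -0.51 to 0.70 for Igfbp3, -0.63 to 1.20 for Igfbp5, -1.15 to 0.80 for Igfbp6 and -0.40 to 0.23 for Igfbp7. The low-count filter left Igf1 in 3, Igfbp6 in 5 and Igfbp3 in 6 of these 7 fits, so their ranges cover those fits alone. In smooth muscle-like cells they were -0.0463 to 0.0484 for Igf1r and -0.70 to 0.41 for Igfbp4. In fibroblast-like cells they were -0.0479 to 0.23 for Igf1, -0.0591 to 0.12 for Igf1r, -0.10 to 0.0534 for Igfbp4 and -0.24 to 0.028 for Igfbp7. In macrophage-like cells they were -0.0134 to 0.23 for Igf1, -1.37 to 0.73 for Igfbp6 and -1.22 to 0.11 for Igfbp7.

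Between cell types, with types from clusters Igfbp3 was -0.72 for fibroblast-like against endothelial-like and -0.0666 for smooth muscle-like against macrophage-like cells, Igfbp5 was 1.74 for endothelial-like against smooth muscle-like cells and Igfbp6 -0.0013 for endothelial-like against macrophage-like cells. Igf1 in endothelial-like against smooth muscle-like cells was -0.029 without a filter and -1.41 in the largest endothelial cluster alone, an alternative chosen after seeing the data. Leaving out 1 library gave -0.29 to 0.37 for that contrast, -0.26 to 0.78 for Igfbp3 in fibroblast-like against endothelial-like cells, -0.0114 to 0.0808 for Igf1r in Pi16 Dpp4 against Fmod Hhip cells and -0.17 to 0.0354 for Igfbp6 in Rgs5-positive against Rgs5-negative cells. Endothelial-like values rest on 59 to 530 cells per library, the thinnest of the 4 types.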
